A study of Rattus norvegicus with 8 samples.

Results

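The genes described here encode the subunits of oxidative phosphorylation, with the assembly factors and gene copies that share their names. They were chosen by gene name: every non-control probe whose name began with Nduf, Uqcr, Cox4i, Cox5, Cox6, Cox7, Cox8 or Atp5, or was Sdha, Sdhb, Sdhc, Sdhd, Cyc1 or Cycs. This gave 198 of the 46883 probes on the array, under 91 of 25512 gene names. The rule uses no measured value. Liver RNA was measured on 8 one-colour oligonucleotide arrays. In the high-fat group 4 samples came from male Sprague Dawley rats, an outbred laboratory stock, given a diet with 60% fat for 12 weeks. The 4 control samples came from male rats of the same stock on a normal diet for 12 weeks. Both groups carry the same label for weight, 180 to 200 g, with the time of weighing not stated, and the labels give no age. The series title sets the question as insulin resistance brought on by the high-fat diet. The labels do not state that each sample was a separate animal, so the p-values measure only the spread between these samples, which may be technical.

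Oxidative phosphorylation takes place in the inner mitochondrial membrane. Complex I takes electrons from NADH and complex II takes them from succinate. Ubiquinone carries them to complex III, cytochrome c carries them on to complex IV, and complex IV passes them to oxygen. Complexes I, III and IV pump protons as they work, and complex V, the ATP synthase, uses the proton gradient to make ATP. In liver this machinery consumes the NADH and FADH2 released by the breakdown of fatty acids. Most subunits are encoded in the nucleus, and a small set lies on the mitochondrial genome. None of the 13 mitochondrially encoded protein genes searched for by name was found on the array, so every value here is for a nuclear transcript.

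Each probe is a stretch of 60 bases that hybridises to the transcript. The probes below belong to genes on which the results turn and show what was hybridised. They were picked from probes that hold at least 1 frame without a stop codon, which does not place them in coding sequence, since no genome of this build was used here. For Sdhb the probe shown is the one that gives the gene's value, and for the others it is a further tested probe of the gene, whose own value is given with the gene. Positions are those of the array files, on the rat build rn4.
Sdha, chr1:29763988-29764047, plus strand: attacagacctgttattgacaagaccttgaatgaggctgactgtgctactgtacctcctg
Sdhb, chr5:159839597-159839656, plus strand: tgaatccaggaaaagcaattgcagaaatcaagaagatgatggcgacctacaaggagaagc
Uqcrc2, chr1:179489883-179489942, plus strand: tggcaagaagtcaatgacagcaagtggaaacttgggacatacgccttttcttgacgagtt
Cycs, chr4:78826694-78826753, minus strand: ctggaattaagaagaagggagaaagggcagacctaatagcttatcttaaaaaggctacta
Atp5b, chr7:1378451-1378510, plus strand: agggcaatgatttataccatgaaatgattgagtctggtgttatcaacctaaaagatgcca
Ndufaf3, no position in the files: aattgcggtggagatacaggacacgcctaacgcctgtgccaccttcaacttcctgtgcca

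Of the 198 member probes, 189 were well above background on at least 4 of the 8 arrays and were tested, covering 90 of the 91 gene names. The other 9 probes were detected on 0 to 2 arrays, and they include both probes of Cox8c, the gene left without a test. All 5 genes that served to check the group's name, Ndufa9, Sdha, Uqcrc2, Cox4i1 and Atp5a1, were detected on all 8 arrays, as were all 10 hepatocyte markers. Between 50.38% and 71.87% of all probes on an array were well above background, lowest on control replicate 1 and high-fat replicate 1. For the member probes this share was 89.9% to 96.46%. Values are normalized log2 intensities, on which 0 is the 75th percentile of the probes detected on all arrays. A level of 1 probe says nothing of the level of another, so only differences between arrays are compared. In bulk tissue, fewer cells of a type and less RNA per cell cannot be told apart.

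No member passed the threshold of an adjusted p of 0.05. The test was limma's moderated test with Benjamini-Hochberg adjustment over all 31535 probes tested. A gene took the adjusted p of its brightest tested probe, and 163 of 18587 genes tested (0.877%) passed. Over probes, 0 of 189 member probes passed against 0.907% of all 31535 probes tested. At an unadjusted p of 0.05 the members numbered 7 of 90 genes against 15.6% of all genes, and 18 of 189 probes against 15.5% of all probes. Of these 7 genes, 5 were higher on the high-fat diet (7.24% of all genes) and 2 were lower (8.4% of all genes). At a looser adjusted threshold of 0.10, 1 member passed, the complex I assembly factor Ndufaf3, while 2.71% of all genes did.

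The changes were small as well as not passing. Across the 90 genes the median log2 change, high-fat minus control, was -0.01, with 43 genes of higher mean and 47 of lower mean; 50.6% of all genes had a higher mean. With each gene taken at its brightest tested probe, the extremes were -0.55 for Ndufaf3 and 0.54 for Cox6b2. On these probes no member moved by 1.5-fold or more in either direction, while 12.2% of all genes did. The second tested probe of Ndufa10 gave 0.64, which is past 1.5-fold. The median size of the change was 0.10 for the members and 0.21 for all genes tested. The 95% interval of the change lay wholly within 2-fold for 87 of 90 members, against 73.4% of all genes, and within 1.5-fold for 71 of 90 members, against 36.6% of all genes. The 3 members with wider intervals were Cox6b2, Uqcrq and Cox6c1. The median within-group SD was 0.16 for the members and 0.28 for all genes. Among genes detected on all 8 arrays the median SD was 0.15 for 88 members and 0.23 for all 13534 genes, and intervals within 2-fold were held by 97.7% of these members against 83.2% of all of them. Within 1.5-fold the shares were 80.7% and 45.5%.

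**Figure D1:**
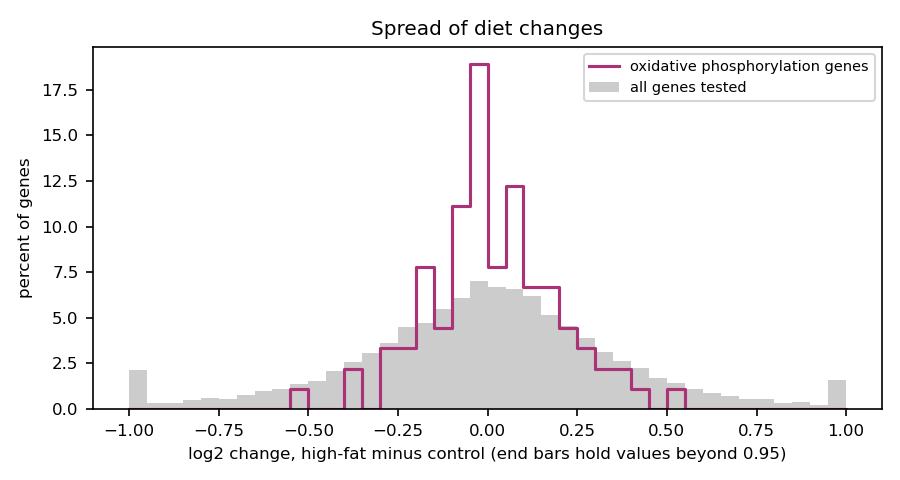
Distribution of the log2 change between diets (x axis, high-fat minus control) as percent of genes (y axis) for the 90 oxidative phosphorylation genes (line) and all 18587 genes tested (grey bars). On their brightest tested probes the members lie between -0.55 and 0.54, around a median of -0.01, and none reaches the tails of the grey bars.

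**Figure D2:**
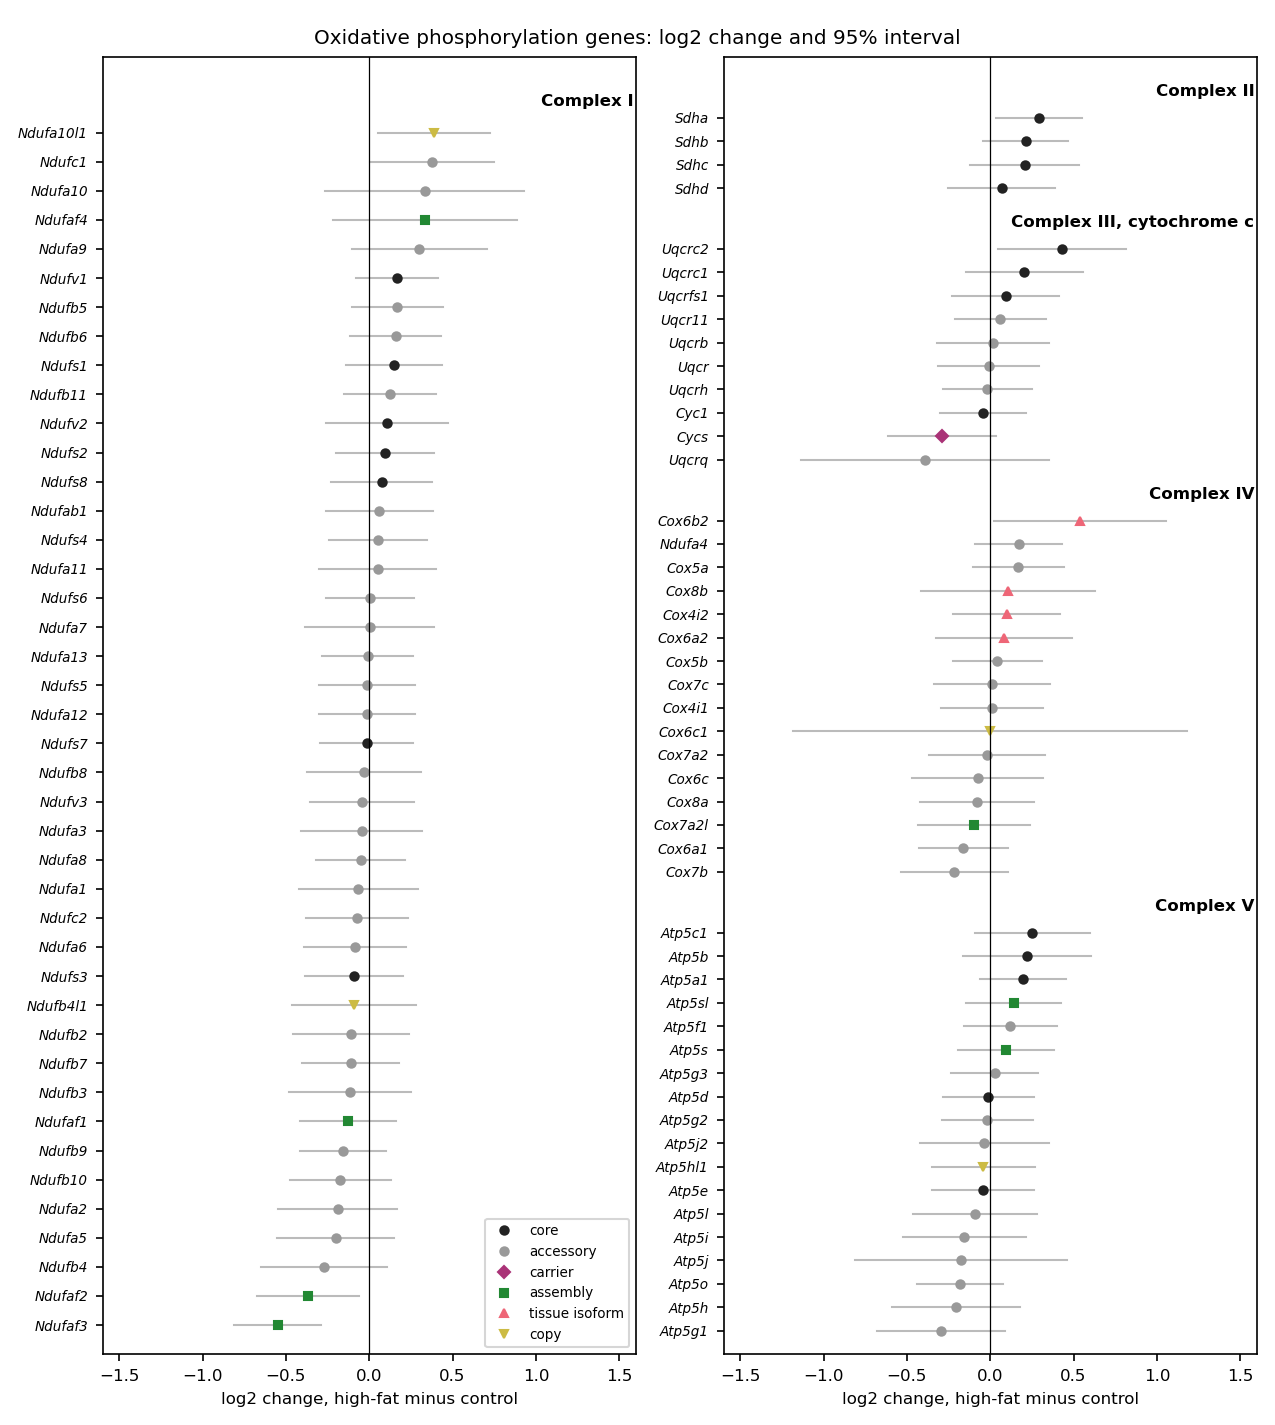
Log2 change between diets (x axis, points) with its 95% interval (grey lines) for each of the 90 genes, sorted within each complex, with the class of each gene shown by colour and shape. Most intervals cross 0, and those of Sdha, Uqcrc2, Ndufc1, Ndufa10l1 and Cox6b2 above 0 and of Ndufaf3 and Ndufaf2 below 0 do not.

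Complex I, the NADH dehydrogenase, was represented by 42 tested genes with a median log2 change of -0.01, 18 of them with a higher mean and 24 with a lower one. Its 7 core subunits on the array, which hold the flavin and the iron-sulfur clusters, had a median change of 0.09. For Ndufv1, the subunit that binds NADH and flavin, controls 1 to 4 read 2.72, 2.83, 2.78 and 2.89 and high-fat samples 1 to 4 read 2.98, 2.99, 2.93 and 3.0. Every high-fat value lay above every control value, although the gap was narrow and the change of 0.17 did not pass (adjusted p = 0.52, limma). The second probe of Ndufv1 gave 0.07 and its groups overlapped.

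Among the 29 accessory subunits of complex I, which surround the catalytic core, the median change was -0.03 and 11 had a higher mean. Ndufc1, a small membrane subunit, read 1.64, 1.35, 1.40 and 0.99 in controls and 1.67, 1.87, 1.57 and 1.79 in high-fat samples. The groups overlapped through control replicate 1, and the change of 0.38 (95% interval 0.01 to 0.75) had an adjusted p of 0.32. Ndufa9, which helps stabilise the junction between the membrane arm and the matrix arm, read 0.53, 0.85, 1.17 and 1.19 in controls and 1.39, 1.05, 1.32 and 1.16 in high-fat samples. Control replicates 1 and 2 stood below all high-fat samples and the other controls among them. Both of its probes gave a change of 0.30, with an adjusted p of 0.48 each. The Ndufa9 probes share part of their bases, so they are not independent measures. Ndufb4, an accessory subunit of the membrane arm, had the lowest value of these subunits, -0.27 (adjusted p = 0.50).

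Ndufa10, an accessory subunit that belongs to the nucleoside kinase family, showed a wide control group. Its brighter probe read 1.87, 1.31, 2.25 and 2.64 in controls and 2.34, 2.46, 2.37 and 2.23 in high-fat samples. The controls spanned both sides of the tight high-fat group, with an SD of 0.57 against 0.10, and the change was 0.33 (95% interval -0.26 to 0.93, adjusted p = 0.61). The second tested probe of Ndufa10 gave a larger change of 0.64 (adjusted p = 0.34, limma). Ndufa10 was chosen for description after its values were seen. Ndufa10l1, a name for a similar transcript, read 2.12, 2.49, 2.26 and 2.33 in controls and 2.48, 2.57, 2.88 and 2.83 in high-fat samples. Only control replicate 2 and high-fat replicate 1 overlapped, and the change was 0.39 (95% interval 0.05 to 0.72, adjusted p = 0.26). On rn4 the probes of Ndufa10 (chr9:91654891-91654950) and Ndufa10l1 (chr9:91655487-91655546) lie side by side on the minus strand, so these 2 names may not be separate genes.

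The assembly factors of complex I held the lowest value of all members. Ndufaf3, a matrix protein needed early in the building of complex I, read 0.20, 0.03, 0.10 and -0.01 in controls and -0.47, -0.38, -0.56 and -0.45 in high-fat samples. All 4 high-fat values lay below all 4 control values, by more than the range within either group. The change was -0.55 (95% interval -0.81 to -0.29), which is 1.46-fold lower, with an adjusted p of 0.07. This call depended on the setting: with a variance that follows intensity and is robust to outliers the adjusted p was 0.034, and with probes detected on all arrays only it was 0.04. It was 0.14 with the mean over probes, 0.21 without the filter on dim probes, 0.22 with the replicate number as a block and 0.11 to 0.18 with 1 array left out. A second Ndufaf3 probe, whose sequence is printed above, gave -0.26 with overlapping groups (adjusted p = 0.49). Controls read -0.31, 0.10, -0.16 and -0.24 on it and high-fat samples -0.66, -0.45, -0.15 and -0.39.

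Ndufaf2, a factor bound to a late assembly intermediate, read -0.10, 0.10, -0.06 and -0.21 in controls and -0.41, -0.42, -0.27 and -0.65 in high-fat samples. The groups did not overlap, and the change was -0.37 (adjusted p = 0.24). The other members of this class went in opposite directions. Ndufaf1 was also lower in mean, at -0.13, and Ndufaf4 was higher, at 0.33, with an interval from -0.22 to 0.88. The per-array mean of the 4 assembly factors ran from 0.01 to 0.16 in controls and from -0.23 to -0.02 in high-fat samples.

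Complex II, the succinate dehydrogenase, links the tricarboxylic acid cycle to the chain, and all 4 of its subunits were higher in mean on high-fat feeding, and their median change was 0.21. None passed the test. Sdha, the flavoprotein that oxidises succinate, read 3.91, 3.81, 3.86 and 3.95 in controls and 4.17, 4.30, 4.08 and 4.16 in high-fat samples. Every high-fat sample was above every control on this probe. The change was 0.29 ± 0.11 (SE; adjusted p = 0.27, limma), or 1.23-fold. The second Sdha probe, printed above, read 2.63, 3.09, 2.75 and 2.88 in controls and 3.26, 3.22, 3.18 and 3.12 in high-fat samples, again with no overlap and with a change of 0.36.

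Sdhb, the iron-sulfur subunit, read 2.25, 2.33, 2.17 and 2.35 in controls and 2.45, 2.50, 2.57 and 2.42 in high-fat samples. These groups too were apart, with a change of 0.21 (adjusted p = 0.42), while the second probe gave 0.30 with overlap through control replicate 4. Sdhc and Sdhd, the membrane anchors, gave 0.21 and 0.07 with overlapping groups, and the second Sdhc probe gave 0.02. Counted over genes, 5 members had groups that did not overlap with high-fat above control (Ndufv1, Sdha, Sdhb, Cox6b2 and Atp5a1), where 4.88% of all genes did. Another 3 were apart with high-fat below control (Ndufaf2, Ndufaf3 and Atp5o), where 6.24% of all genes were. These were 5.56% and 3.33% of the members, the first near the share of all genes and the second below it, on few genes.

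**Figure D3:**
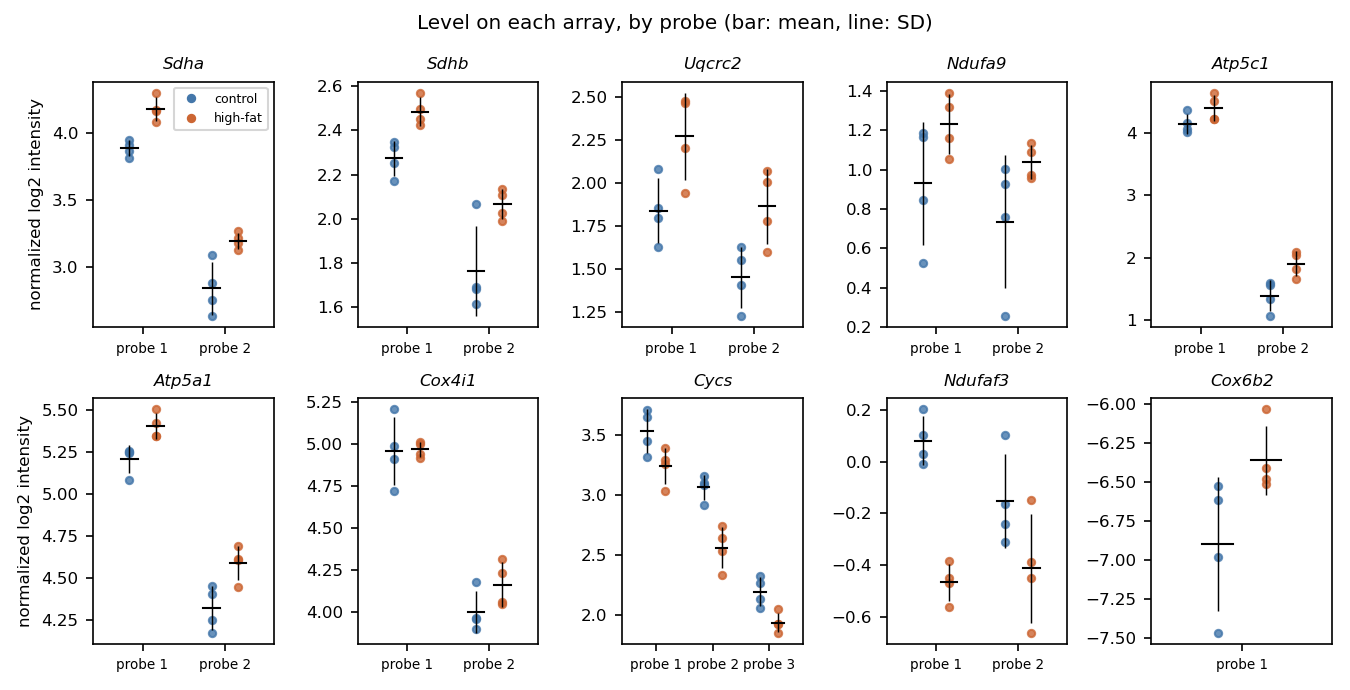
Normalized log2 intensity (y axis, a separate scale for each panel) on each array for every tested probe of 10 genes, with control samples in blue, high-fat samples in orange, the group mean as a bar and the SD as a vertical line. Both Sdha probes and the first Ndufaf3 probe separate the diets without overlap, and the 2 probes of Uqcrc2 give 0.43 and 0.41 with overlap.

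Complex III, the cytochrome bc1 complex, and cytochrome c gave 10 tested genes with a median change of 0.00, of which 5 had a higher mean. Uqcrc2, a core protein of the matrix side, read 1.63, 1.79, 1.85 and 2.08 in controls and 1.94, 2.20, 2.48 and 2.46 in high-fat samples. High-fat replicate 1 lay within the controls and the other three high-fat samples lay above them. The change was 0.43 ± 0.17 (SE; 95% interval 0.05 to 0.81, adjusted p = 0.27), and the second probe gave 0.41. The 2 probes share part of their bases, so they are not independent measures. Uqcrc1, its partner core protein, gave 0.20. Uqcrfs1, the Rieske iron-sulfur protein, gave 0.09, and Cyc1, the cytochrome c1 that hands electrons on, gave -0.05. All of these had overlapping groups on their brighter probes.

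Among the smaller subunits, Uqcrq had the widest interval, from -1.13 to 0.35 around -0.39, with readings from -3.27 to -2.25 in controls and from -3.97 to -2.77 in high-fat samples. Its second probe was detected on none of the arrays. Uqcr and Uqcr11 are 2 names on the array for the same transcript and gave -0.01 and 0.06, so the 91 names stand for fewer genes. Cycs, the cytochrome c that shuttles electrons between complexes III and IV, was lower on all 3 of its probes, though none passed. The brightest read 3.45, 3.71, 3.31 and 3.65 in controls and 3.25, 3.29, 3.39 and 3.03 in high-fat samples. High-fat replicate 3 exceeded control replicate 3, and the change was -0.29 (adjusted p = 0.38).

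The other Cycs probes did separate the groups. One read 3.16, 3.1, 2.91 and 3.08 in controls and 2.74, 2.64, 2.53 and 2.34 in high-fat samples, a change of -0.50 (95% interval -0.81 to -0.20, adjusted p = 0.13). The probe printed above read 2.13, 2.27, 2.06 and 2.32 in controls and 1.85, 1.92, 2.05 and 1.92 in high-fat samples, a change of -0.26 (adjusted p = 0.35). High-fat replicate 3 came within 0.01 of the lowest control there. Cycs has processed copies in the rat genome, and hybridisation cannot assign signal between near-identical copies.

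Complex IV, the cytochrome c oxidase, gave 16 tested genes with a median change of 0.01, of which 9 had a higher mean. Cox4i1, the widely expressed form of subunit 4 and a common mitochondrial loading marker, read 4.99, 5.21, 4.91 and 4.72 in controls and 4.92, 5.0, 4.94 and 5.01 in high-fat samples. The high-fat values fell inside the control range, and the change was 0.01 (95% interval -0.30 to 0.32). Cox5a, another nuclear subunit, gave 0.17 and Ndufa4, now counted with complex IV, gave 0.17. Cox7b gave -0.22 and Cox6a1 gave -0.16. None of these passed.

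The tissue isoforms of complex IV are subunits used mainly outside the liver: Cox6a2 and Cox8b in heart and skeletal muscle, Cox4i2 mostly in lung, and Cox6b2 in testis. They gave 0.08 for Cox6a2, 0.11 for Cox8b, 0.10 for Cox4i2 and 0.54 for Cox6b2. None passed, and other probes turned the sign: the next brightest probe gave -0.35 for Cox6a2 and -0.18 for Cox8b. The Cox8b probes share most of their bases. Its brighter probe was dim, with a control mean of -6.0, and was well above background on 3 of 4 control arrays. Cox6b2 read -7.47, -6.99, -6.62 and -6.53 in controls and -6.04, -6.41, -6.48 and -6.52 in high-fat samples. The groups were apart by 0.01 only, between control replicate 4 and high-fat replicate 4, and the probe was well above background on 3 of 4 arrays in each group. Within the slide row that held control replicates 1 and 2 and high-fat replicates 1 and 2 its change was 1.0, and within the other row 0.07. The forms used in liver that pair with these isoforms gave -0.16 for Cox6a1, -0.08 for Cox8a and 0.01 for Cox4i1. Cox6c and its pseudogene listed as Cox6c1 gave -0.08 and 0.00; the probes that gave these values match at 40 of 46 aligned bases, so signal may be shared. The interval of Cox6c1 ran from -1.18 to 1.18.

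Complex V, the ATP synthase, gave 18 tested genes with a median change of -0.03, of which 7 had a higher mean. This count was drawn by array name and holds some genes not counted as subunits. They are the copy Atp5hl1 (-0.04), and Atp5sl (0.14) and Atp5s (0.09), now named Dmac2 and Dmac2l. Only their array names place Atp5sl and Atp5s with complex V here. Of the 5 subunits of its catalytic head, 3 had a higher mean and 2 a lower one. Atp5a1, the alpha subunit, read 5.08, 5.25, 5.24 and 5.25 in controls and 5.50, 5.35, 5.34 and 5.42 in high-fat samples. All 4 high-fat samples lay above all 4 controls, with a change of 0.20 (adjusted p = 0.46). Atp5b, the beta subunit that carries the catalytic sites, read 3.46, 3.96, 3.87 and 3.89 in controls and 3.97, 3.74, 4.27 and 4.08 in high-fat samples. The groups overlapped, and the changes on its probes were 0.22 and 0.50.

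Atp5c1, the gamma subunit that forms the rotating shaft, read 4.02, 4.38, 4.06 and 4.17 in controls and 4.23, 4.23, 4.52 and 4.65 in high-fat samples. The change was 0.25 (adjusted p = 0.49), and 0.04 and 0.47 within the 2 slide rows. Its second probe gave 0.52 (95% interval 0.13 to 0.90, adjusted p = 0.21) with groups that did not overlap. Atp5d and Atp5e, the small subunits of the same head, gave -0.01 and -0.04, and the second Atp5e probe gave -0.20.

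Of the 10 subunits of the membrane part and the stalk of complex V, 8 had a lower mean, with a median of -0.12. None passed, and their mean deviation on the arrays overlapped between the diets, from -0.02 to 0.14 in controls and from -0.20 to 0.09 in high-fat samples. Atp5g1, one of the genes for the ring subunit c, read 4.88, 5.05, 4.79 and 4.80 in controls and 4.83, 4.73, 4.17 and 4.59 in high-fat samples. High-fat replicate 1 lay inside the control range and replicate 3 far below it. The change was -0.30 (adjusted p = 0.46), and -0.52 on the second probe. Atp5g2 and Atp5g3, which encode the same mature ring protein, gave -0.02 and 0.03. The other Atp5g2 probes gave -0.20 and -0.17, while the other Atp5g3 probes gave 0.29 and 0.34, the latter with every high-fat sample above every control (adjusted p = 0.29). Atp5f1, a subunit of the peripheral stalk, gave 0.12, and 0.39 without overlap on its second probe (adjusted p = 0.20). Atp5o, a stalk subunit, gave -0.18 on both probes, with no overlap on the brighter one (adjusted p = 0.50). The Atp5o probes share part of their bases, so they are not independent measures. Atp5h, another stalk subunit, gave -0.21 on one probe and 0.03 on the other.

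Core or catalytic were taken to be the catalytic subunits of complex I, all of complex II, the core, Rieske and c1 proteins of complex III and the head of complex V. The other subunits, among them the ring of complex V and every nuclear subunit of complex IV used in liver, were counted as accessory. Grouped in this way across complexes, the 20 core or catalytic subunits had a median log2 change of 0.13, and 15 of them had a higher mean. The 54 accessory subunits had a median of -0.03, and 20 had a higher mean; the median over all genes was 0.00. This split was drawn with the data already known and is a description without a test. On the arrays, the mean deviation of the core subunits from each gene's own mean was -0.11, 0.00, -0.10 and -0.05 in controls and 0.00, 0.04, 0.09 and 0.13 in high-fat samples. Control replicate 2 and high-fat replicate 1 met at 0 and the rest of the diets lay apart. For the accessory subunits it was 0.12, 0.04, -0.03 and -0.07 in controls and 0.01, 0.08, -0.07 and -0.09 in high-fat samples, with the diets overlapping. Without control replicate 1 the accessory median was 0.02 with 32 of 54 higher, whereas the core median was 0.11 with 17 of 20 higher. The arrays lay in 2 rows of a slide, each row with 2 samples of either diet, and the core median was 0.07 in one row and 0.19 in the other. Within the rows the changes were 0.37 and 0.21 for Sdha, 0.36 and 0.50 for Uqcrc2, -0.31 and -0.27 for Cycs and -0.54 and -0.55 for Ndufaf3. With the row as a block their adjusted p-values in limma were 0.30, 0.19, 0.40 and 0.09 in that order. Other genes changed sign between the rows: Uqcrc1 gave 0.47 and -0.06, Cyc1 0.08 and -0.17, Uqcrfs1 -0.02 and 0.21, and Cox4i1 -0.14 and 0.16.

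**Figure D4:**
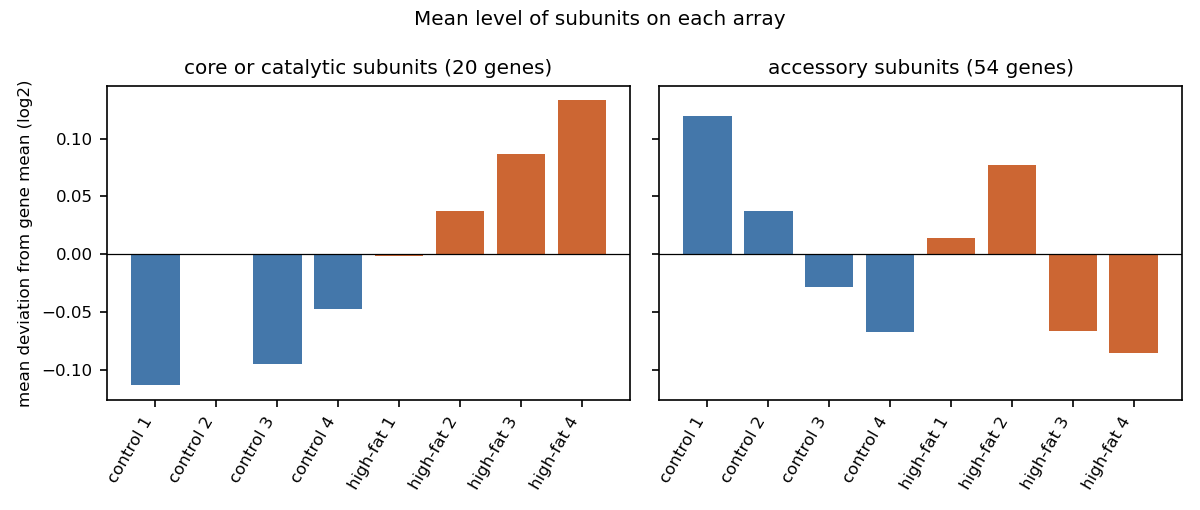
Mean deviation (y axis, log2) of the 20 core or catalytic subunits (left) and the 54 accessory subunits (right) from each gene's mean over all arrays, for each of the 8 arrays. The core subunits run from -0.11 to 0.13, with control replicate 2 and high-fat replicate 1 both at 0.00 and the diets otherwise apart, and for the accessory subunits the diets overlap.

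Different probes of a gene gave similar but not equal changes. Of the 79 members with several tested probes, 65 had all probes on the same side of 0, and across these genes the changes of the brightest and the next probe had a Pearson correlation of 0.745. Genes are not independent replicates and both probes of a gene share the RNA samples, so this value is a description. Some pairs, such as those of Cyc1, Ndufa3 and Cox8a, share most of their bases, so their agreement is not a second measure. The median gap between the probes of a gene was 0.10, which is about as large as the typical change itself. The position of a probe in its transcript moved with the change: Spearman's rho was 0.273 over 109 member probes with a position and 0.093 over 17378 such probes of all genes. What part this has in the values was not tested.

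**Figure D5:**
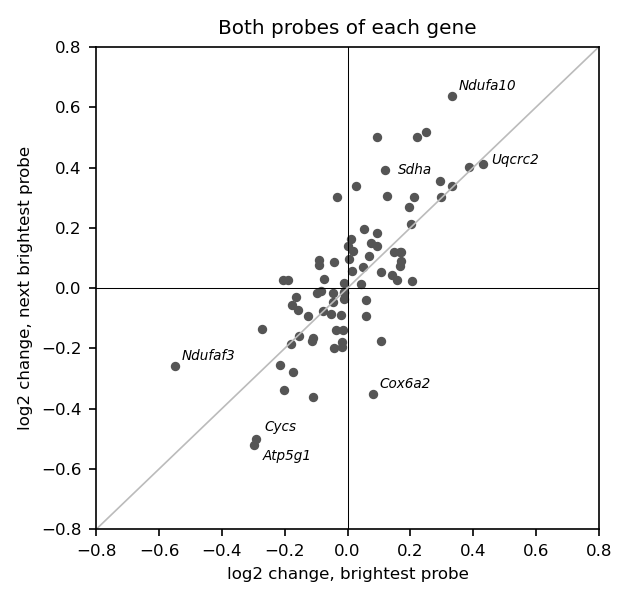
Log2 change of the brightest probe (x axis) against that of the next brightest probe (y axis) for the 79 genes with several tested probes, with the line of equality in grey. Uqcrc2 and Sdha lie in the upper right and Cycs and Atp5g1 in the lower left, with the Pearson correlation at 0.745.

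Promoters were read from RefSeq on the build GRCr8 for 76 members, each as 250 bases before and 50 after the start. Shared sites for a few factors are known in this gene group, and 4 short motifs were searched on both strands. The NRF1 core CGCATGCG was found in 9 members (11.8%) and in 1.81% of all 27457 promoters. The ETS core CCGGAAG, bound by GABPA, was found in 21 members (27.6%) and in 9.22% of all. The YY1 core AAGATGG was found in 17 (22.4%) against 7.3%, and the ESRRA element AAGGTCA in 11 (14.5%) against 4.37%. In the 250 bases before the start alone the YY1 core was found in 3 members (3.9%) against 4.63% of all promoters, so most of its matches in members lie across or after the start. A match describes the letters only and is not a measured site. The bases before the start of Cycs and Uqcrc2 are shown because these genes had mean changes of opposite sign, though neither passed; capitals mark matches, an NRF1 core in Cycs and, read on the opposite strand, 2 ETS cores and a YY1 core in Uqcrc2.
Cycs promoter, chr4:80984768-80985017, minus strand: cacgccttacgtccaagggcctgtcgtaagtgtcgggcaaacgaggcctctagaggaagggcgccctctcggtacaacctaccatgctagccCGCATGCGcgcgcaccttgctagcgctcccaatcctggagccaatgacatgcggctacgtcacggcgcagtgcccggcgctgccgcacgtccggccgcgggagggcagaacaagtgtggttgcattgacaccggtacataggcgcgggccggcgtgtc
Uqcrc2 promoter, chr1:184598990-184599239, plus strand: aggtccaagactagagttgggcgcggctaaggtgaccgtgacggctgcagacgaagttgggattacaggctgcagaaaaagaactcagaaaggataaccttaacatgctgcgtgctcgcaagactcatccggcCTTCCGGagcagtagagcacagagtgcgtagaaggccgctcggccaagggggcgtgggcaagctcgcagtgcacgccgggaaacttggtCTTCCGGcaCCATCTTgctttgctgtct
Counted from the start, with the base before it at position -1, the NRF1 core of Cycs begins at -158. In Uqcrc2 the ETS cores begin at -117 and -28 and the YY1 core at -19. In the 250 bases before the start of Sdha, Ndufaf3 and Atp5c1 none of these letters were found.

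Genes that act beside the chain were read from lists chosen with earlier results of these data known, and none of their members passed the test. Of 26 assembly factors tested, which include the 4 Ndufaf genes above, the median change was 0.02. Ttc19, a factor for complex III, gave 0.44 (adjusted p = 0.21); it read -1.62, -1.69, -1.77 and -1.56 in controls and -1.55, -1.22, -1.06 and -1.04 in high-fat samples, all of the latter above the controls. Of 13 tricarboxylic acid cycle genes, 11 had a higher mean, with a median of 0.17. Sucla2, a subunit of succinyl-CoA synthetase, read 1.61, 1.75, 1.68 and 1.75 in controls and 2.08, 2.10, 2.36 and 2.26 in high-fat samples. The groups were well apart, and the change of 0.50 had an adjusted p of 0.10, or 0.044 with the robust variance that follows intensity. Dlst, a subunit of the 2-oxoglutarate dehydrogenase complex, gave -0.42 (adjusted p = 0.24).

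Electrons also enter at ubiquinone through other enzymes, of which 8 were tested, with a median of -0.02. Etfdh, which passes on electrons from fatty acid oxidation, read 1.18, 1.62, 1.36 and 1.30 in controls and 2.04, 1.70, 2.13 and 1.78 in high-fat samples. It did not overlap between diets and gave 0.55 (adjusted p = 0.15). Dhodh, an enzyme of pyrimidine synthesis, read -0.85, -0.72, -0.83 and -0.89 in controls and -1.43, -1.13, -1.20 and -1.25 in high-fat samples, also without overlap, and gave -0.43 (adjusted p = 0.15). Gpd2 gave the largest change of this list, -1.14 (95% interval -2.07 to -0.21, adjusted p = 0.24, limma), and was named after its value was seen. Its other probes gave -0.87 and -0.83. The controls were widely spread, with an SD of 0.92 against 0.23, and the groups overlapped. Of 17 regulators of mitochondrial biogenesis the median was 0.06. Prkaa2, a catalytic subunit of AMP-activated kinase, gave 0.79 (adjusted p = 0.16), and Gabpa, the ETS factor named above, gave 0.33 (adjusted p = 0.32). The other tested Gabpa probes gave 0.05 and 0.19. Of 8 carriers, channels and uncoupling proteins the median was -0.14; Vdac2, an outer membrane channel, gave -0.39 (adjusted p = 0.24) and Slc25a5, an ADP/ATP carrier, gave 0.27 (adjusted p = 0.39).

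Markers of other cells were read beside these values, and 1 of them passed the test, a lymphocyte marker. The summed level of a list is the log2 of its genes' added linear intensities, so the brightest genes of a list weigh most in it. For 4 tested of 6 erythroid markers it ran from 4.80 to 6.17 in controls and from 6.16 to 6.84 in high-fat samples. By gene, the log2 change was 1.43 for Alas2, 1.14 for Hba-a2, 1.05 for Hbb and -0.29 for Slc4a1. For 7 of 7 macrophage and Kupffer cell markers it ran from 4.49 to 4.90 in controls and from 3.47 to 4.32 in high-fat samples. Marco gave -2.38, Vsig4 -0.78 and Clec4f -0.60, while Cd68 gave -0.26, Csf1r -0.18, Cd163 -0.09 and Emr1 -0.04. For 7 of 8 lymphocyte markers it ran from -0.79 to -0.42 in controls and from -2.11 to -1.14 in high-fat samples. In that list Cd3g, a T cell receptor chain, fell, with a log2 change of -1.44 and an adjusted p of 0.042, and was named after its value was seen. The other tested markers of that list did not pass; among them Cd3d gave -0.69, Cd3e, a chain of the same receptor, 0.02, Cd79b 0.31, Nkg7 -0.22 and Cd2 -0.20. For 7 of 12 muscle markers the ranges were -1.63 to -1.25 and -1.53 to -1.24, for 2 of 6 adipocyte markers 2.04 to 3.38 and 1.76 to 2.56, and for 3 of 8 exocrine pancreas markers -3.94 to -1.99 and -3.34 to -2.01. The summed level of the 10 hepatocyte markers was 9.43 to 9.87 in controls and 9.46 to 9.73 in high-fat samples. The part of other cells in the values of the oxidative phosphorylation genes was not tested.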

How the data were processed

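Sample titles gave each group and replicate number. Liver RNA (500 ng) was copied from an oligo-dT primer and labelled with Cy3, per the labels' protocols. Per the file headers, intensity was extracted from the scans by Agilent Feature Extraction 10.7.3.1. The authors also deposited a table of log2 values of these arrays, whose scaling is not stated in the labels or headers. Against scanner values it correlated at 0.999 or more, without centring per probe and with brighter spots higher; by replicate, the column medians in controls were -3.1, -3.21, -3.14 and -3.17, and in high-fat samples -3.14, -3.20, -3.16 and -3.20. This table was an alternative input.

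Spots numbered 62976 per array, 58717 of them not controls; control spots and flagged outliers were left out, and 0 spots were saturated. From the log2 processed signal, each array's 75th percentile over probes detected on all 8 arrays (47.9% of probes) was subtracted, spots of a probe were averaged, and probes detected (well above background) on 4 or more arrays went into limma 3.58.1 under R 4.3.3, through lmFit and eBayes. A gene stood for its brightest tested probe. The number of arrays limits the precision. The slide, 1 for all arrays, had 2 rows, and both diets had 2 arrays in either row. The tests were tried on simulated data.

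The members and lists were chosen with earlier results of these data known. Named were the 5 label genes, members past the threshold, the 3 smallest p-values per complex and direction, paired isoforms, members whose probes disagreed by over 0.5 each way (none did), and in each related list the 2 smallest p-values; other names are given to complete a complex or were chosen after their values were seen. RefSeq (GRCr8) gave current symbols, with 80 of 91 names and 173 of 198 probes matched by accession. The other names were matched by symbol or synonym. Alternatives changed background correction, scaling, filter, gene summary, variance model, array weights, blocks, threshold and promoter window, and left out each array in turn.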

Additional observations from a re-analysis of the deposited data

Results flagged for a closer look

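In 102 sets of 4 samples (the levels of the named genes in each diet, the mean deviations per complex and role, and the detection share), a sample far from the other three of its group appeared 4 times, and chance gives about 1 in 20. Atp5a1 read 5.08 in control replicate 1 against 5.24 to 5.25 in the other controls. Cox6a2 read -3.97 in control replicate 1 against -3.41 to -3.34. Cox7a2, a subunit form used in liver of complex IV, read 3.04 in high-fat replicate 2 against 2.68 to 2.71. Cox8b read -5.36 in control replicate 2 against -6.25 to -6.20 in the other controls.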

How the results depend on the processing

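The count of 163 genes past the threshold over the whole array was 253 with normexp background correction, 5 without a filter on dim probes, 331 with probes detected on all arrays, 335 with a trended and robust variance, 98 with the slide row as a block and 504 at an adjusted p of 0.10. It was 16 to 89 with 1 array left out, lowest without high-fat replicate 2, and 14 with both arrays of fewest detected probes left out, an alternative chosen after seeing the data. The count of members past the threshold was 1, Ndufaf3, under detection on all arrays, the trended variance and the threshold of 0.10, and 0 in the other alternatives with a test. The median change of complex II was 0.13 within slide row 1, and that of complex V was 0.033 without the 2 arrays of fewest detected probes; the cause was not tested. The medians of the other complexes moved by less than the spread between replicates. In the 250 bases before the start alone, 3 members held the YY1 core (3.9%, against 4.63% of all promoters) and 7 the ESRRA element (9.2%, against 3.77%).

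With the replicate number as a block, 1 gene and 0 members passed. Deviations of same-numbered samples correlated at -0.12, 0.26, 0.23 and 0.01, so the numbers were not taken to pair the samples. With 4 samples a group, the median half-width of the members' 95% intervals was 0.31.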
